A study of Mus musculus with 15 samples.

Results

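The K2P genes encode the leak potassium channels, and 9 of them, Kcnk1, Kcnk2, Kcnk3, Kcnk4, Kcnk6, Kcnk10, Kcnk12, Kcnk13 and Kcnk18, were followed across sensory neurons taken from naïve, sham-operated and spinal cord injured (SCI) mice. The members were taken by their gene symbols from a table of 54108 symbols, and all 9 were found in it. The mouse genes Kcnk5, Kcnk7, Kcnk9, Kcnk15 and Kcnk16 make up the rest of the family in that table, which gives 14 K2P genes in all. Of the 9 members, 8 had a mean of at least 1 over the 15 libraries and were tested, and Kcnk6 did not.

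K2P channels are dimers in which each subunit contributes a pair of pore domains, and they pass potassium at rest, so that their number and opening set the resting membrane potential and the input resistance of a neuron. They are grouped by sequence and gating. The TWIK group holds Kcnk1 (TWIK-1) and Kcnk6 (TWIK-2), the TREK group holds the stretch-, heat- and lipid-gated channels Kcnk2 (TREK-1), Kcnk10 (TREK-2) and Kcnk4 (TRAAK), the TASK group holds the acid-sensitive channel Kcnk3 (TASK-1), the THIK group holds Kcnk13 (THIK-1) and Kcnk12 (THIK-2), and Kcnk18 is TRESK, which is opened by the calcium-dependent phosphatase calcineurin. In dorsal root ganglia these channels are known as brakes on firing, and TRESK, TREK-1, TREK-2 and TRAAK have been studied in nociceptors in particular.

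Each of the 15 libraries came from the sorted cells of 1 mouse, with 5 mice per group, and about 3000 cells were collected per mouse. The cells were dorsal root ganglion (DRG) neurons from lumbar levels L2 to L6, labelled from the hairy hindpaw skin with a fluorescent wheat germ agglutinin and sorted by that label, so that neurons without a label and neurons to other targets were not sampled. All mice were female C57BL/6J animals aged 8 to 12 weeks. The naïve mice had no operation and were housed in groups, the sham mice had a laminectomy at vertebra T10 with no compression, and the SCI mice had the same laminectomy followed by compression of the cord with a vessel clip. Sham and SCI tissue was taken 4 days after surgery. Both operated groups were caged singly, so operation and housing cannot be told apart in comparisons with naïve mice. SCI and sham mice shared the laminectomy and the housing. Only the SCI mice had their bladders emptied by hand each day, so injury and this handling cannot be told apart.

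Depth was 1321632 to 7465583 reads in naïve libraries, 2568656 to 7389487 in sham libraries and 3000636 to 4385542 in SCI libraries, and 4 of the 5 sham libraries were deeper than all SCI libraries. The nociceptor markers Scn10a (mean 817), Scn11a (516) and Trpv1 (367) were abundant. Of the 7 listed markers of myelinated neurons, Pvalb (5.04) and Runx3 (1.82) were low. The others were higher: Ntrk2 (567), Nefh (283), Cntnap2 (206), Ntrk3 (177) and Spp1 (29.9). Transcripts of the satellite glia and Schwann cell lists were abundant too, with satellite glia sums of 1822 to 2230 (median 2143) in SCI, 1469 to 2199 (median 1769) for sham and 1400 to 3190 (median 2665) for naïve libraries. Schwann cell sums were 1408 to 1567 (median 1441) in SCI, 1070 to 1587 (median 1326) for sham and 1079 to 2363 (median 1962) for naïve libraries. Both medians were higher in SCI than in sham libraries, with overlapping ranges, and their part in the differences of the members was not tested. The median log2 difference over all 16000 genes tested was 0.17 for sham against naïve and fell to 0.042 and 0.053 after rescaling by median ratios and by TMM, so small positive values of sham against naïve were of the size of that shift. It was 0.081 for SCI against naïve and -0.070 for SCI against sham.

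In SCI neurons the measured levels of Kcnk1, Kcnk13 and Kcnk18 were the lowest of the 3 groups, at 0.633, 0.630 and 0.692 of their sham levels, while Kcnk2, Kcnk3, Kcnk4, Kcnk10 and Kcnk12 lay closer to the sham level. Kcnk10 and Kcnk2 also had their lowest mean in SCI libraries, for Kcnk2 only just below naïve (51.5 against 51.7). None of the members passed an adjusted p under 0.05. Levels are normalised read counts, each a whole number of reads multiplied by 1 constant per library (1 read was worth 0.141 to 0.791) and not divided by gene length. Differences are log2 differences of group means of log2(value + 1) from limma, with p-values adjusted over the 16000 genes by the Benjamini-Hochberg method. In these bulk samples, fewer cells of a type and less RNA per cell cannot be told apart.

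**Figure D1:**
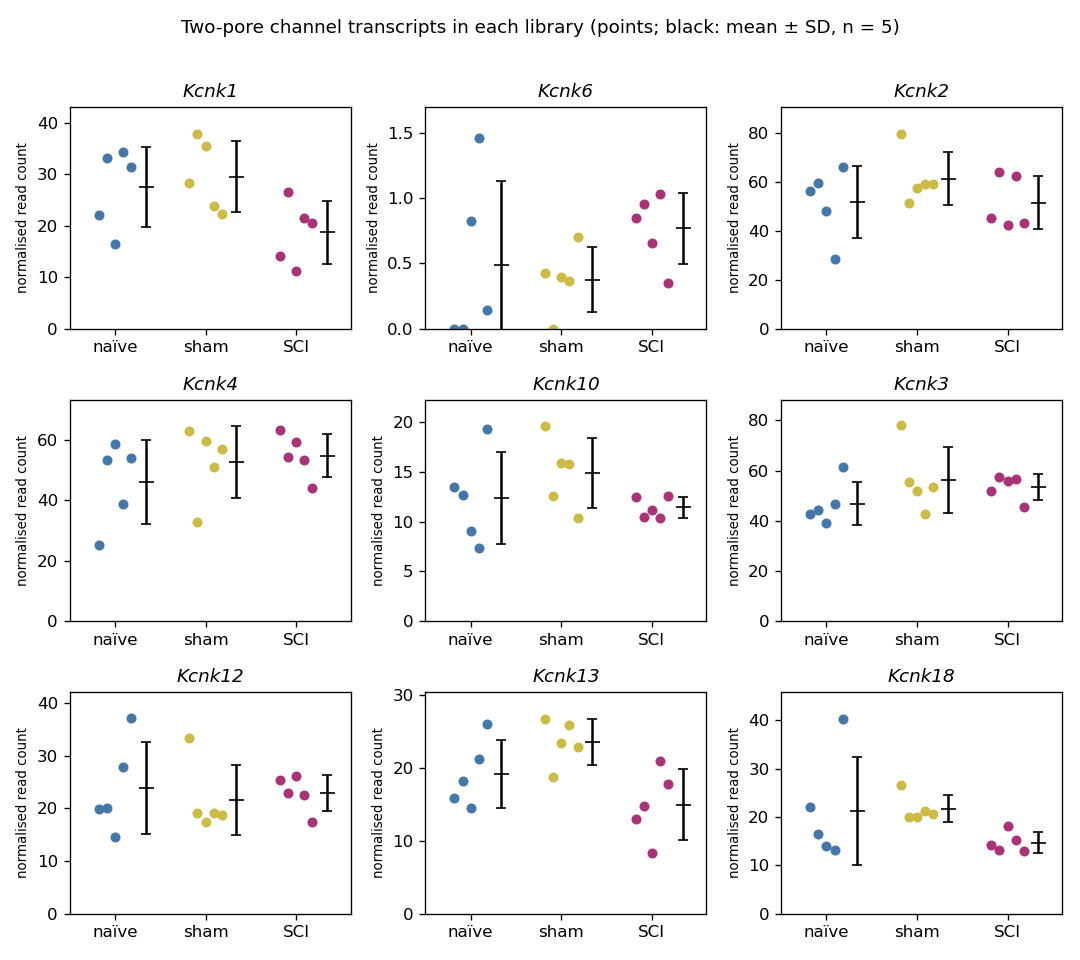
Normalised read count of each of the 9 members (vertical axis, from 0) in every library, by group. Points are mice, black marks are the mean ± SD (n = 5), and the lower arm for Kcnk6 in naïve mice is cut at 0. All 5 SCI values of Kcnk18 lie below all 5 sham values, whereas the groups overlap for Kcnk1 and Kcnk13.

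The start regions of 3 genes are printed here because Kcnk1 and Kcnk13 were the members with the lowest log2 differences in SCI against sham, beside Kcnk12, the closest relative of Kcnk13. The windows are those of RefSeq on GRCm38.p6, from 250 bases before to 50 bases after the RefSeq start, read 5′ to 3′ on the strand of the gene. Capitals mark CG dinucleotides, the sites of vertebrate DNA methylation. The window of Kcnk1 lies at chr8:125994852-125995151 on the + strand, that of Kcnk13 at chr12:99964249-99964548 on the + strand and that of Kcnk12 at chr17:87797945-87798244 on the - strand. In the GENCODE M21 annotation Kcnk1 starts at 125995170, so its window lies wholly upstream of that start and holds none of that transcript.
Kcnk1: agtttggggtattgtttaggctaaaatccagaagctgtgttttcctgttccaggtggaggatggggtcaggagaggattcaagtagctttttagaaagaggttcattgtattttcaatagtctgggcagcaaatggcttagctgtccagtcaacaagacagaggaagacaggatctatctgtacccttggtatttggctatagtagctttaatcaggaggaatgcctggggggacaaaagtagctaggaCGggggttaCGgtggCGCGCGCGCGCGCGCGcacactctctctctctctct
Kcnk13: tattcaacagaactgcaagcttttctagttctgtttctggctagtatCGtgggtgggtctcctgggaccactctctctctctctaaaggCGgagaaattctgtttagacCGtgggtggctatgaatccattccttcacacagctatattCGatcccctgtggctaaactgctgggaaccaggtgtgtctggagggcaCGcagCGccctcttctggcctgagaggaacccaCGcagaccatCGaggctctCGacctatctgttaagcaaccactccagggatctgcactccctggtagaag
Kcnk12: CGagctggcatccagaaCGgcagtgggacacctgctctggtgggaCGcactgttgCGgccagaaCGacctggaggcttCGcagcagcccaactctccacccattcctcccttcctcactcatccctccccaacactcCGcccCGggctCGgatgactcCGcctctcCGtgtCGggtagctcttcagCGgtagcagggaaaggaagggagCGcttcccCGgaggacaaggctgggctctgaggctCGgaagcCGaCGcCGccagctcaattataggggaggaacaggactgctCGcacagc

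The windows of Kcnk1 and Kcnk13 held 10 and 9 CG dinucleotides, near the median of 7 over all 32851 RefSeq windows, and most of those of Kcnk1 sat in 1 run next to the RefSeq start. The window of Kcnk12 held 20. Short motifs were searched on both strands. The AP-1 motif TGANTCA was in 7.81% of all windows, the cyclic AMP response motif TGACGTCA in 1.79%, the core promoter motif TATAAA in 13.6%, the E-box motif CACGTG in 7.15% and the Sp1 motif GGGCGG in 35.7%. The windows of Kcnk1 and Kcnk13 held none of these letters, and that of Kcnk12 held the Sp1 motif in 1 place. A window was found for 7 of the 9 members.

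TWIK-1 had its lowest mean in the SCI libraries. Kcnk1, at chr8:125995170-126030685 on the + strand (GRCm38, GENCODE M21) with 3 exons, a channel with very small currents that cycles between endosomes and the surface, was measured at 22.1, 33.1, 16.5, 34.4 and 31.5 in the naïve libraries, at 28.4, 37.8, 35.5, 23.9 and 22.3 in the sham libraries and at 14.1, 26.5, 11.2, 21.4 and 20.6 in the SCI libraries. The 4 SCI values other than 26.5 lay below every sham value, and the 26.5 of SCI replicate 2 lay within the sham range, so the groups overlapped. The means were 27.5 ± 7.79, 29.6 ± 6.89 and 18.8 ± 6.09 (SD, n = 5 each).

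The log2 difference of Kcnk1 in SCI against sham was -0.66 (SE 0.24, 95% interval -1.16 to -0.16), with an unadjusted limma p of 0.0130 and an adjusted p of 0.897. Against naïve the log2 difference was -0.54 (SE 0.24, interval -1.04 to -0.036, unadjusted limma p 0.0371, adjusted p 0.898). Sham and naïve libraries differed by 0.12 (interval -0.38 to 0.62). In the SCI against sham comparison leaving out 1 library at a time moved the difference between -0.79 and -0.50, the last without SCI replicate 3, and the unadjusted p stayed under 0.05 in 15 of 15 such fits. Against naïve it stayed under 0.05 in 10 of 15. For this and the other members, 5 of the 15 fits leave out a library of the group not compared. Those 5 fits keep the difference as it is and change only the shared spread behind the p-value.

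Kcnk6 (TWIK-2), a channel known from macrophages and vascular tissue, was almost absent. Its 30 reads were spread over 12 of the 15 libraries, with at most 4 reads in any library. The SCI libraries held 0.849, 0.954, 0.659, 1.03 and 0.349, the sham libraries 0.426, 0, 0.393, 0.362 and 0.701, and the naïve libraries 0, 0, 0.827, 1.46 and 0.141. A difference was not detectable at this depth, since 0 reads in naïve replicate 1 allowed a level of up to 2.37 (3 reads). The macrophage and microglia markers summed to 28.0 to 165 in SCI libraries, to 25.2 to 261 in sham libraries and to 29.0 to 291 in naïve libraries, and of the 12 markers, all at a mean of at least 1, only Cd74 (43.2) and Lyz2 (19.0) were above 10, with Aif1 at 1.79 and Cx3cr1 at 2.62.

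The THIK genes had unlike values. Kcnk13, at chr12:99964499-100062682 on the + strand, a halothane-inhibited channel also known as the main resting potassium channel of microglia, was measured at 15.8, 18.2, 14.5, 21.2 and 26.0 in naïve, at 26.7, 18.7, 23.4, 25.9 and 22.8 in sham and at 13.0, 14.8, 8.24, 20.9 and 17.8 in SCI libraries. In SCI mice 4 of the 5 values lay below all sham values, and SCI replicate 4 lay above the lowest sham value. Group means were 19.1 ± 4.62, 23.5 ± 3.14 and 14.95 ± 4.81 (SD, n = 5 each).

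Kcnk13 had the smallest p of all members, ranking 52 of the 16000 genes in SCI against sham. Its log2 difference was -0.67 (SE 0.21, interval -1.12 to -0.22, unadjusted limma p 0.00602, adjusted p 0.897), and it ranged from -0.80 to -0.49 with 1 library left out, with an unadjusted p under 0.05 in 15 of 15 fits. Against naïve the log2 difference was -0.37 (interval -0.82 to 0.085, unadjusted limma p 0.105), and without SCI replicate 3, the lowest library, it was -0.18. The sham level exceeded the naïve level by 0.30 (interval -0.15 to 0.75), so the gap to sham was wider than the gap to naïve. The macrophage and microglia sums given above overlapped across all 3 groups, and their part in the Kcnk13 difference was not tested.

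Kcnk12, which gives little current on its own and can pair with Kcnk13, was measured at a mean of 23.8 ± 8.80 in naïve, 21.5 ± 6.65 in sham and 22.9 ± 3.40 in SCI libraries (SD, n = 5 each), with ranges of 14.5 to 37.1, 17.5 to 33.4 and 17.4 to 26.0. Its log2 difference was 0.11 in SCI against sham (interval -0.36 to 0.58) and -0.0016 against naïve (interval -0.47 to 0.47), and the value of Kcnk13 lies outside the first interval (-0.67 against sham) but inside the second (-0.37 against naïve). Within each library the log2 ratio of Kcnk13 to Kcnk12 averaged -0.63 ± 0.64 in SCI mice, 0.15 ± 0.32 in sham mice and -0.26 ± 0.20 in naïve mice, with overlapping ranges, and was not tested.

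TRESK was the member whose SCI and sham libraries did not overlap. Kcnk18, at chr19:59219214-59237374 on the + strand with 3 exons, was measured at 26.6, 19.9, 20.02, 21.2 and 20.7 in sham and at 14.1, 13.1, 18.1, 15.2 and 12.9 in SCI libraries. The naïve libraries held 22.1, 16.5, 14.1, 13.2 and 40.2. All SCI values were below all sham values, but the naïve values spanned both groups, from near the lowest SCI value to a value in naïve replicate 5 that was above every other library. The means were 21.2 ± 11.2 in naïve, 21.7 ± 2.78 in sham and 14.7 ± 2.12 in SCI (SD, n = 5 each). Of all 16000 genes tested, 201 had SCI values wholly below the sham values, 1.26%, and Kcnk18 was the only 1 of 8 tested members among them.

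For Kcnk18 the log2 difference of SCI against sham was -0.53 (SE 0.23, interval -1.02 to -0.043, unadjusted limma p 0.0347, adjusted p 0.897). The unadjusted p stayed under 0.05 in 10 of 15 fits without 1 library, with a log2 difference of -0.61 to -0.46. Against naïve it was -0.39 (interval -0.88 to 0.099, unadjusted limma p 0.111) and moved to -0.14 without naïve replicate 5, the deepest library of that group. The spread of Kcnk18 among SCI mice was 1.02 times the SD that read counting alone gives, and among naïve mice 3.77 times.

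**Figure D2:**
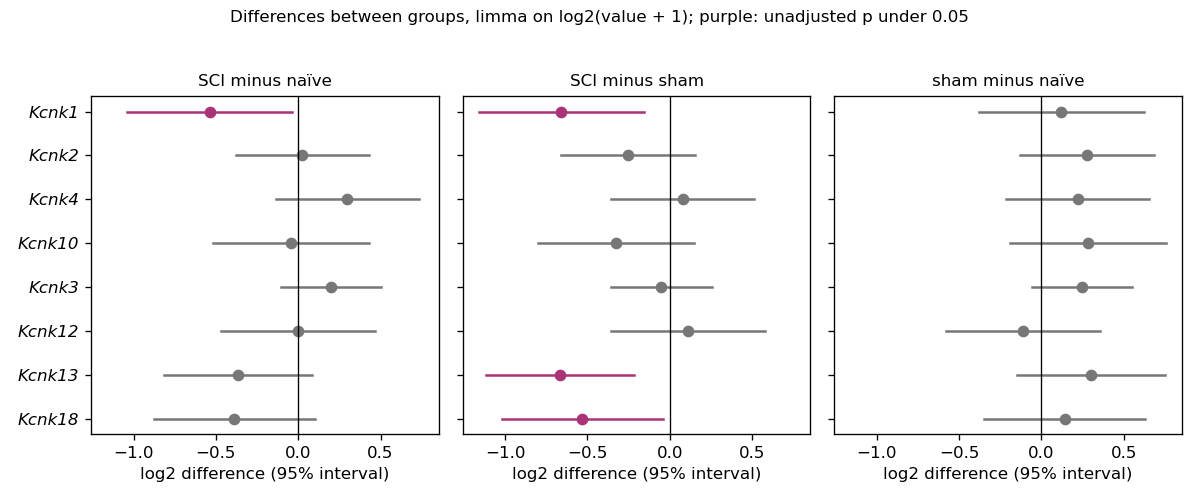
Log2 difference of group means (horizontal axis, log2(value + 1) scale) with its 95% interval for the 8 tested members in 3 comparisons. Purple marks an unadjusted limma p under 0.05, which Kcnk1, Kcnk13 and Kcnk18 reached in SCI against sham and Kcnk1 in SCI against naïve. No adjusted p was under 0.05.

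The heat- and stretch-gated group held smaller log2 differences in the SCI comparisons. Kcnk2 averaged 51.7 ± 14.5 in naïve, 61.2 ± 10.8 in sham and 51.5 ± 10.8 in SCI libraries, with a log2 difference of SCI against sham of -0.25 (interval -0.66 to 0.15). Kcnk10, its closest relative, averaged 12.4 ± 4.61, 14.8 ± 3.53 and 11.4 ± 1.053, with -0.33 (interval -0.80 to 0.15). Both intervals include 0 and also reach the size measured for Kcnk18.

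Kcnk4 (TRAAK) averaged 46.0 ± 13.8, 52.7 ± 11.9 and 54.8 ± 7.22 (SD, n = 5 each), with 0.078 for SCI against sham (interval -0.36 to 0.51) and 0.30 against naïve (interval -0.14 to 0.73). The lower values of naïve mice came from naïve replicates 1 and 4, the shallowest libraries, at 25.3 and 38.7, and without these 2 libraries the log2 difference to naïve was -0.022. In the annotation Kcnk4 shares part of its locus with Catsperz on the same strand (mean 35.1), so reads in the shared stretch cannot be assigned with certainty.

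Kcnk3 (TASK-1) had the smallest SE of the tested members (0.14 on the log2 scale), with means of 46.8 ± 8.53 in naïve, 56.3 ± 13.2 in sham and 53.4 ± 5.02 in SCI libraries. Its log2 difference of SCI against sham was -0.051 (interval -0.35 to 0.25), and these bounds exclude a drop as large as those measured for Kcnk1 and Kcnk13. The gene overlaps Gm9899 on the opposite strand (mean 11.1), and the strand setting of the counting is not given in the sources used here.

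Counted over the list, 0 of 8 tested members passed an adjusted p under 0.05 in SCI against sham by limma, beside 0 of 16000 genes (0%), and edgeR and DESeq2 on the recovered reads also called 0 members, beside 0 (0%) and 4 genes (0.0250%). At an unadjusted p under 0.05, 3 of 8 members were lower and 0 higher, beside 519 genes lower (3.24%) of 3.89% in either direction, and the same 3 members were lower by edgeR, beside 3.69% of 5.93%. In SCI against naïve 0 of 8 passed the adjusted threshold beside 0 of 16000 (0%), with 0 genes by edgeR and DESeq2 as well, and Kcnk1 alone was lower at an unadjusted p under 0.05, beside 127 genes (0.794%) of 4.52% in either direction. By edgeR, Kcnk1 and Kcnk18 were lower in that comparison at unadjusted p-values of 0.0277 and 0.0127, beside 1.45% of 3.17%. By DESeq2 all 3 were, with unadjusted p-values of 0.0174 for Kcnk1, 0.0353 for Kcnk13 and 0.0109 for Kcnk18, beside 1.82%. Rescaling the limma values by median ratios gave Kcnk13 -0.44 and Kcnk18 -0.46 in that comparison, with unadjusted p-values of 0.0352 and 0.0383, so whether these members were under 0.05 against naïve depended on the scaling.

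In sham against naïve no member reached an unadjusted p under 0.05, beside 2651 genes (16.6%), and 0 genes passed the adjusted threshold by limma, edgeR or DESeq2 (0%). Set against the mean of naïve and sham, the SCI level was lower at an unadjusted p under 0.05 for the same 3 members, with log2 differences of -0.60 for Kcnk1, -0.52 for Kcnk13 and -0.46 for Kcnk18, beside 221 genes lower (1.38%). In that comparison 0 of 16000 genes passed the adjusted threshold by limma and by edgeR (0%) and 3 by DESeq2 (0.0188%), none of them a member. This last comparison uses the same SCI libraries as the others and adds no independent samples. The members' median log2 difference was -0.29 in SCI against sham and -0.022 in SCI against naïve, beside -0.070 and 0.081 over all genes.

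Depth differed between the groups and moved with several members. Over the 15 libraries the correlation of the log2 level with log2 reads was 0.091 for Kcnk1, 0.46 for Kcnk13 and 0.51 for Kcnk18, against 0.70 for Kcnk2 and 0.73 for Kcnk4, as a description only, since each library adds 1 depth to all genes. Without the 2 shallowest libraries, naïve replicates 1 and 4, these values were 0.32, 0.68 and 0.72 for Kcnk1, Kcnk13 and Kcnk18, against 0.75 for Kcnk2 and 0.43 for Kcnk4. The place of Kcnk4 as the highest of these genes rested on those 2 libraries, while the others kept their order. With log2 reads as a term in the fit, SCI against sham was -0.64 for Kcnk1 and -0.55 for Kcnk13, with unadjusted limma p-values of 0.0193 and 0.0140. For Kcnk18 the same term gave -0.36 with an unadjusted p of 0.0912. In SCI against naïve the term gave -0.55 for Kcnk1, -0.48 for Kcnk13 and -0.56 for Kcnk18, with unadjusted limma p-values of 0.0404, 0.0281 and 0.0126 and an adjusted p of 0.996 for each.

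**Figure D3:**
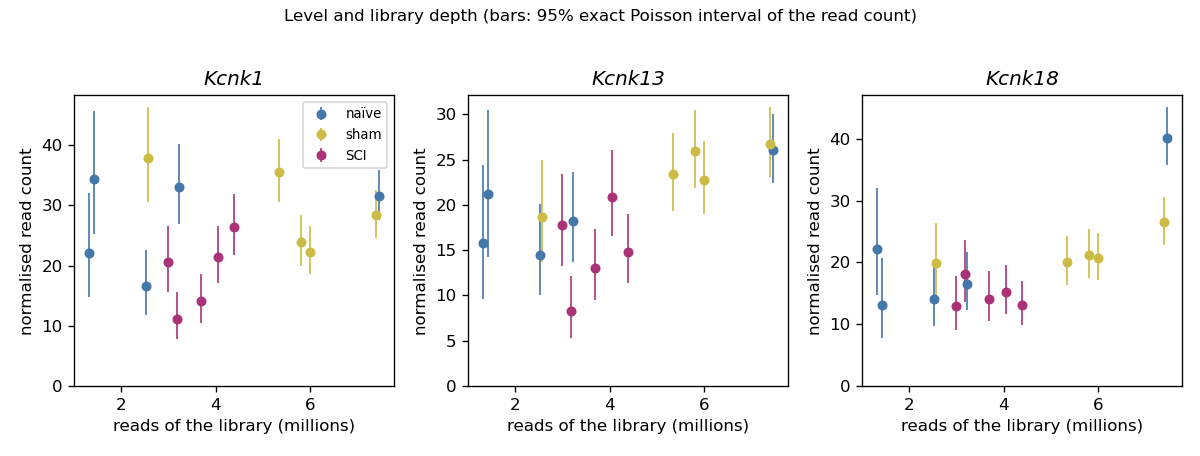
Normalised read count (vertical axis, from 0) against the number of reads of the library for Kcnk1, Kcnk13 and Kcnk18. Points are libraries coloured by group, and bars are the 95% exact Poisson interval of the read count, which covers counting error only. The SCI libraries sit at 3000636 to 4385542 reads, and 4 sham libraries lie to their right.

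The C-LTMR list, named for low-threshold C fibre mechanoreceptors, held Th, Slc17a8, Fam19a4, Piezo2 and Cdh9, all detected. How far each gene is confined to these cells was not tested. The list summed to 478 to 766 in SCI libraries, 692 to 920 in sham libraries and 656 to 921 in naïve libraries. The non-peptidergic list summed to 942 to 1019, 877 to 1127 and 1042 to 1368 in the same order. The C-LTMR range of SCI mice reached below those of the other groups, as the ranges of Kcnk1, Kcnk13 and Kcnk18 did. For Kcnk18 it did so only just against naïve (12.9 against 13.2). Piezo2 was the largest part of the sum, at means of 447 in SCI, 526 in sham and 542 in naïve libraries. The sum therefore mostly followed Piezo2 and is not a measure of these cells alone. Th (75.5, 104 and 99.3) and Slc17a8 (37.4, 54.8 and 41.6) also had their lowest mean in SCI libraries. Fam19a4 (54.3, 68.3 and 52.3) and Cdh9 (19.3, 21.7 and 18.2) had theirs in naïve libraries. The part of these markers in the differences of Kcnk1, Kcnk13 and Kcnk18 was not tested.

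Levels of different channels were compared per kb of exon, using the union of exons in GENCODE M21. Kcnk3 stood first with a normalised read count of 13.1 ± 2.45 per kb (SD over 15 libraries), followed by Kcnk12 at 11.5, Kcnk4 at 11.5, Kcnk1 at 11.3, Kcnk5 at 11.2 and Kcnk2 at 11.1. Each of these neighbours differed by less than the SD of their difference between libraries. Even so, Kcnk3 was above Kcnk12 in 13 of 15 libraries, while the later neighbours kept their order in 5 to 9 of 15. The order also changed with the group. In naïve libraries Kcnk1 (12.3 per kb) and Kcnk12 (12.1) stood above Kcnk3 (11.8), and in SCI libraries Kcnk1 averaged 8.40 per kb and stood below the other 5. Over all libraries a second tier held Kcnk13 at 6.17, Kcnk18 at 5.53 and Kcnk9 at 5.08 per kb, whose order was within the same spread. Here Kcnk13 was above Kcnk18 in 12 of 15 libraries and Kcnk18 above Kcnk9 in 9 of 15.

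The step between these tiers was clear, with Kcnk2 above Kcnk13 in 14 of 15 libraries, and so was the step from Kcnk9 down to Kcnk10 at 1.47 per kb, seen in 15 of 15. Kcnk16 (0.827), Kcnk7 (0.264), Kcnk6 (0.131) and Kcnk15, with a single read in all, were at the bottom. The length rule matters for the top. With the longest transcript in place of the union, Kcnk4 came first at 20.2 per kb and Kcnk2 next at 15.3, whereas Kcnk13, Kcnk18 and Kcnk10 kept ranks 7, 8 and 10.

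**Figure D4:**
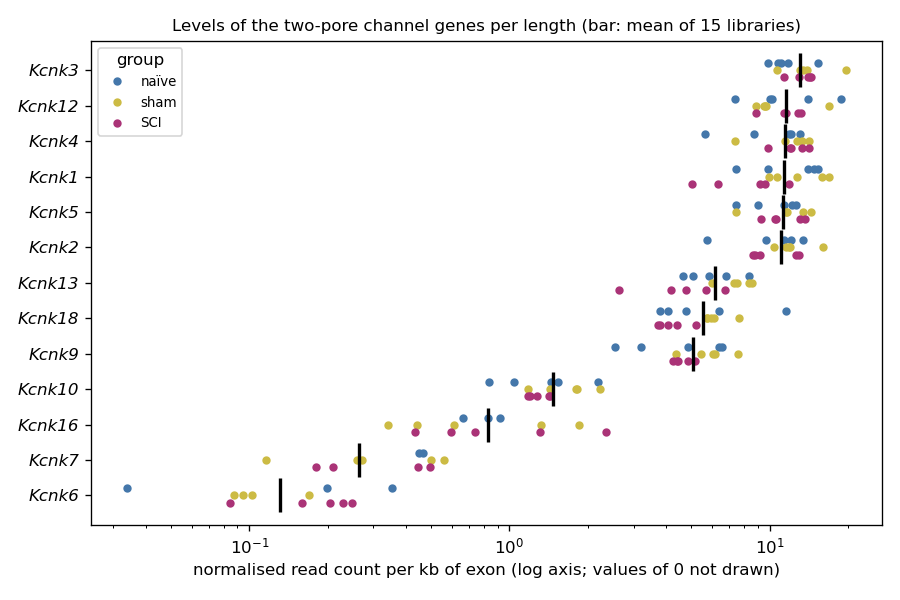
Normalised read count per kb of exon (logarithmic axis) of the K2P genes in each library, coloured by group, with the mean of 15 libraries as a black bar. Kcnk15 and values of 0 are not drawn. The means of the first 6 genes lie together at 11.1 to 13.1, and Kcnk10, Kcnk16, Kcnk7 and Kcnk6 trail below.

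Summed per kb, the TREK group made up 27.0% of the K2P total, the TASK group (Kcnk3, Kcnk9 and Kcnk15) 20.4%, the THIK group 19.8%, the TALK group (Kcnk5 and Kcnk16) 13.6%, the TWIK group with Kcnk7 13.1% and TRESK 6.13%. The whole K2P sum was 86.7 ± 17.6 in naïve, 96.99 ± 13.4 in sham and 84.0 ± 6.46 in SCI libraries (SD, n = 5 each), with overlapping ranges. The TWIK share was 14.6%, 14.3% and 10.5% in the same order, and the TRESK share 6.86%, 6.46% and 5.07%, as a description of the levels already given.

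The other 5 family genes did not pass either. Kcnk9 (TASK-3, an acid-sensitive relative of Kcnk3) averaged 58.0 ± 22.3, 72.7 ± 14.3 and 56.9 ± 4.67, with a log2 difference of SCI against sham of -0.33 (interval -0.78 to 0.11). Kcnk5 (TASK-2, opened by alkaline pH) averaged 35.9 ± 7.58, 39.8 ± 9.18 and 38.9 ± 6.35, with -0.016 (interval -0.39 to 0.36). Kcnk16 (TALK-1, best known from pancreatic beta cells) averaged 1.15 ± 1.07, 2.17 ± 1.54 and 2.58 ± 1.86, and Kcnk7 and Kcnk15 were under a mean of 1 and were not tested.

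Of 25 genes that regulate or bind K2P channels (calcineurin subunits, 14-3-3 proteins, trafficking partners and Gq signalling), all 25 were tested and 0 passed in any comparison by limma. Calcineurin opens TRESK, and its catalytic subunit Ppp3ca averaged 469 ± 118 in naïve, 363 ± 83.7 in sham and 436 ± 36.3 in SCI libraries, with a log2 difference of SCI against sham of 0.28 (SE 0.16, unadjusted limma p 0.0918). Gnaq, the alpha subunit of Gq, through which receptors close TREK and TASK channels, had -0.30 for sham against naïve (unadjusted limma p 0.00875, adjusted p 0.300). The 14-3-3 genes Ywhah and Ywhag, whose proteins bind TRESK and help TASK channels reach the surface, had -0.61 and -0.59 in the same comparison, with the same adjusted p. The list had 8 genes lower and 1 higher at an unadjusted p under 0.05 there, beside 3.19% and 13.4% of all genes by limma. The split of all genes turned with the tool, since 6.88% were lower of 10.7% at that threshold by edgeR and 8.04% of 11.4% by DESeq2, and the list was not counted by these tools.

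Among 23 other genes that shape the resting potential (inward rectifiers, HCN channels, the sodium leak complex and sodium pump subunits), 20 were tested and 0 passed by limma. In SCI against naïve, Kcnj11, the pore of the ATP-sensitive potassium channel, averaged 6.92 ± 3.01 against 13.3 ± 4.31 (log2 difference -0.88, SE 0.34, unadjusted limma p 0.0190, adjusted p 0.898). In SCI against sham, the rectifiers Kcnj6 and Kcnj4 had -0.76 and -0.60 (unadjusted p-values 0.0246 and 0.0333). In this list 2 of 20 genes were lower and 0 higher at an unadjusted p under 0.05 in that comparison, beside 3.24% and 0.650% of all genes.

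Likeness of pattern was measured by Pearson's r of log2(value + 1) over the 15 libraries among 11580 genes with a mean of at least 10, as a description, since these libraries share their depth and their groups. Kcnab1, a beta subunit of voltage-gated potassium channels, was the gene most like Kcnk13 (r = 0.91) and also the gene most like Kcnk1 (r = 0.88). It averaged 83.1 ± 20.4 in naïve, 97.1 ± 7.13 in sham and 55.7 ± 17.5 in SCI libraries. Next for Kcnk1 were Brinp2 (0.87) and Ccdc74a (0.85), and next for Kcnk13 were Alkbh3 (0.89) and Bri3bp (0.88).

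The genes most like Kcnk18 were Acad11 (0.87), Gm10516 (0.85) and Csrnp3 (0.85). Kcnk1 and Kcnk13 followed each other with an r of 0.73, whereas Kcnk18 had an r of 0.30 with Kcnk1 and of 0.48 with Kcnk13. Kcnk10 was the member most like Kcnk18 (0.78), and Kcnk3 the member most like Kcnk12 (0.71).

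**Figure D5:**
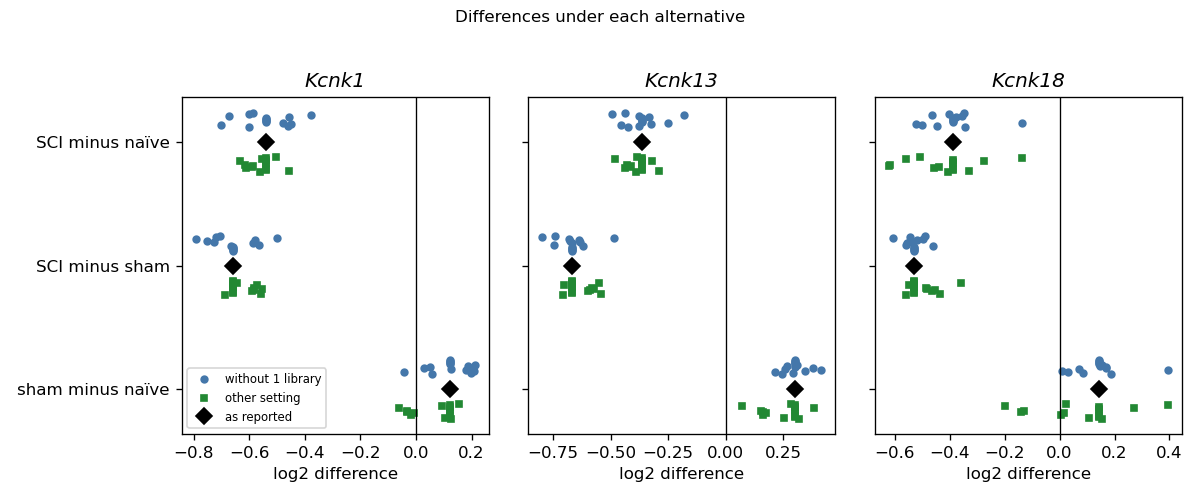
Log2 differences (horizontal axis) of Kcnk1, Kcnk13 and Kcnk18 in 3 comparisons under every alternative. Diamonds are the values reported, circles are fits without 1 library and squares are other settings. The SCI values of all 3 genes stay below 0, between -0.80 and -0.36 against sham, while sham against naïve crosses 0 for Kcnk1 and Kcnk18.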

How the data were processed

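RNA of sorted, skin-labelled DRG neurons from 5 naïve, 5 sham and 5 SCI mice was sequenced by the authors as 75-base single-end reads from a stranded mRNA kit. The submitters' processing notes name HISAT2, HTSeq, DESeq2 and mm10. The deposited values carry the name RPKM but are a signal in which every value was a whole read count times 1 constant per library (100% whole within a tolerance of 1e-06), with no division by length, so the test for normalised values was used and reads were recovered for count tests. Lines whose symbol had become a number (27, at most 0.210% of reads) and 97 repeated symbols were left out.

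Groups were compared with limma 3.58.1 (R 4.3.3) with a variance trend on log2(value + 1), genes with a mean of at least 1 (16000), all 15 libraries, and Benjamini-Hochberg adjustment per comparison at a threshold of 0.05. Unadjusted p-values are from the same model. Alternatives were other pseudocounts, filters, scalings, edgeR 4.0.16 and DESeq2 1.42.0 on recovered reads, quality weights, a replicate block, depth as a term, values beyond 50% of the group mean left out (the wider bound of the outlier range in the study's methods, whose narrower bound was not run) and each library left out. Leaving out the 2 shallowest libraries was added after seeing the data. All members, the other K2P genes and, per list and comparison, the 3 genes with the smallest p are named, with the 3 genes of highest r per member and marker genes. The members and lists were chosen with earlier results of these data known. Gene lengths and overlaps are from GENCODE M21 (GRCm38). Protein sequences are not used here. Each replicate is 1 mouse. Counting intervals are exact Poisson intervals at 95% and cover counting error only. The scripts were tested on simulated data.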

Additional observations from a re-analysis of the deposited data

Results flagged for a closer look

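In 3 cases 1 library of a group of 5 lay further from the rest than Dixon's 95% critical value of 0.71 for the gap over the range, and all 3 were in sham replicate 1, the deepest sham library (7389487 reads). Kcnk2 was at 79.7 there, with 59.0 next. Kcnk12 was at 33.4, with 19.1 next. Kcnk18 was at 26.6, with 21.2 next. Among 33 groups tested, chance flags about 1 in 20 groups. Without sham replicate 1 the log2 difference of SCI against sham was -0.16 for Kcnk2, 0.27 for Kcnk12 and -0.46 for Kcnk18.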

How the results depend on the processing

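The direction of SCI against sham and of SCI against naïve held for Kcnk1, Kcnk13 and Kcnk18 under every alternative run. No count of called members changed from 0 except with library quality weights, where 3 members were called in SCI against sham (Kcnk1 -0.57, Kcnk13 -0.70, Kcnk18 -0.55, with limma adjusted p-values of 0.0478, 0.0107 and 0.0159). The same weights called 3060 of 16000 genes in that comparison and 3631 in sham against naïve, against 0 and 0 without them, and 1 and 2 in the other comparisons. Leaving out values beyond 50% of the group mean called 44, 98, 642 and 45 genes for SCI against naïve, SCI against sham, sham against naïve and SCI against the mean of both, with no member. DESeq2 called 4 genes in SCI against sham and 3 against the mean of both. Without naïve replicate 5, 1752 genes passed in sham against naïve. The counts of called members without 1 library ranged from 0 to 0. The cause was not tested in any of these cases.

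Of 952 values of single members under alternatives, 46 changed sign, in 13 of 32 differences, none past the threshold. For SCI against naïve, Kcnk2 (0.025 as reported) became -0.047 with median-ratio factors, -0.028 with TMM, -0.068 with edgeR, -0.079 with DESeq2, -0.13 with weights, -0.14 with depth as a term and -0.18 without the 2 shallowest libraries. Kcnk12 (-0.0016) became 0.00056 with a pseudocount of 0.1, 0.13 with weights, 0.17 under the 50% rule and 0.029 without the 2 shallowest libraries, Kcnk10 became 0.13 under the 50% rule, and Kcnk4 became -0.022 without the 2 shallowest libraries. For SCI against sham, Kcnk3 became 0.020 with median-ratio factors, 0.028 with TMM, 0.0083 with edgeR, 0.0012 with DESeq2 and 0.034 with depth, and Kcnk4 became -0.063 with weights. For sham against naïve, Kcnk1 became -0.019 with median-ratio factors, -0.0078 with TMM, -0.033 with edgeR, -0.032 with DESeq2 and -0.062 with weights. Kcnk18 became -0.14 with edgeR, -0.13 with DESeq2 and -0.20 with depth. With depth, Kcnk2, Kcnk4 and Kcnk10 became -0.047, -0.18 and -0.0049, and Kcnk4 became -0.10 without the 2 shallowest libraries.

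Without 1 library in turn, the differences that changed sign ranged, for SCI against naïve, from -0.17 to 0.13 (Kcnk2), -0.20 to 0.13 (Kcnk10) and -0.16 to 0.17 (Kcnk12). For SCI against sham they ranged from -0.14 to 0.074 (Kcnk3) and -0.079 to 0.15 (Kcnk4), for sham against naïve from -0.042 to 0.21 (Kcnk1) and -0.27 to 0.060 (Kcnk12), and against the mean of both from -0.022 to 0.14 (Kcnk12).

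The labels number the mice of each group and do not say whether mice of the same number shared a batch. The deviations of same-numbered libraries correlated at -0.22 to 0.22. Pairs with different numbers were not set beside them, so these values cannot decide whether the numbers mark a pairing. With the number as a replicate block 0 members and 0 genes were called in each comparison, and Kcnk1, Kcnk13 and Kcnk18 in SCI against sham kept unadjusted limma p-values of 0.00861, 0.00356 and 0.0454. Depth limits Kcnk6, whose libraries held 0 to 4 reads.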
